A study of Drosophila melanogaster with 12 samples.

Results

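The long State 9 regions are the long stretches of a list of 9 chromatin states that is deposited with these data and is used to read the position of tagged histones in the male germline. State 9 is described as transcriptionally silent and intergenic. Of the 42126 regions in the list, 7939 have State 9, and 2076 of these were at least 10 kb long and lay on the arms 2L, 2R, 3L, 3R and X. These 2076 regions make up 26.1% of the State 9 regions and 4.93% of the list. Regions on chromosome 4 and on names ending in Het were left out, which removed 7 State 9 regions of at least 10 kb on Het names and 0 on chromosome 4.

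The study asked where histones H3 and H3.3 and their mutants, in which residue 31 was swapped (H3A31S and H3.3S31A), sit in the genome. Each GFP-tagged histone was expressed in the germline of Drosophila melanogaster testes by the nanos driver (nos-Gal4 with UASp transgenes) together with UAS-Upd, which makes Unpaired, a ligand of the JAK-STAT pathway that expands the stem cells of the testis. All 4 groups are therefore tumour testes, which also carry hs-flp and, behind the EGFP-tagged histone, an mCherry-tagged copy that needs FLP to be expressed. Males were about 2 days old and reared at 25°C, and each of the 3 replicates per histone pooled 18 to 20 testes or testis pairs, both of which the labels give. Chromatin immunocleavage (ChIC) was used, in which an antibody against GFP brings micrococcal nuclease to the tagged histone and the released DNA is sequenced. Unpaired also expands somatic stem cells in these tumours, while the tagged histones come from the germline driver.

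In flies, most of a chromosome arm outside active genes lacks the histone marks of transcription. Some of this silent chromatin is bound by Polycomb proteins, some carries marks of heterochromatin such as methylated H3K9, and some, like State 9, is defined mainly by the lack of active marks. H3 is deposited mainly during DNA replication, while H3.3 is also deposited outside replication, mostly at active genes.

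The states were not measured in these testes. The list belongs to no library and its genome build is not stated, and its positions were set beside genes of the dm6 genome only on 2L, where they match. The table of reads has 12 columns of reads without names, so the 4 histones cannot be compared with it and only the sum over all 12 libraries is given. No value here therefore has a replicate error, and no input or untagged control was used. Regions are not replicates of a condition, so no test was made, and intervals are 95% intervals for counting error only (Wilson for shares, exact Poisson for numbers of gene starts).

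Example promoters of genes outside and inside the long State 9 regions are shown first, chosen after their values were seen and not as typical of their groups. They are the 200 bases before the annotated start of 4 genes of 2L in dm6, read 5′ to 3′ on the strand of the gene. Capitals mark TATCGATA, the core of the DNA replication-related element (DRE) found before many genes active in all cells, or TATAAA, the core of the TATA box. Prosalpha6 and mRpS23 encode a proteasome subunit and a mitochondrial ribosomal protein that all cells use, and start in State 1 (promoter and TSS). Prosalpha6T, the testis-specific copy of Prosalpha6, and Cpr31A, a cuticle protein gene, start in long State 9 regions.
Prosalpha6, plus strand, 10221151 to 10221350: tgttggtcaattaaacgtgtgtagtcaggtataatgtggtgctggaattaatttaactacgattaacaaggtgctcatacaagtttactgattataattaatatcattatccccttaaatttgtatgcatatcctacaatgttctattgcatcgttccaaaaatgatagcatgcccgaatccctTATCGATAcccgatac
mRpS23, minus strand, 13835073 to 13835272: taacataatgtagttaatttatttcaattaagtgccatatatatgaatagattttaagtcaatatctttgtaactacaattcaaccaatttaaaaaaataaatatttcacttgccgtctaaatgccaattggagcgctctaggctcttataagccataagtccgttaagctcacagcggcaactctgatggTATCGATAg
Prosalpha6T, plus strand, 13231839 to 13232038: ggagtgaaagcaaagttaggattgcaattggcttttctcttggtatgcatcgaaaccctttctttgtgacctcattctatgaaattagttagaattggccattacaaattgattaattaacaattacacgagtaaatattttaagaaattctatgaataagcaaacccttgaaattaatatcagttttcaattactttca
Cpr31A, plus strand, 10054013 to 10054212: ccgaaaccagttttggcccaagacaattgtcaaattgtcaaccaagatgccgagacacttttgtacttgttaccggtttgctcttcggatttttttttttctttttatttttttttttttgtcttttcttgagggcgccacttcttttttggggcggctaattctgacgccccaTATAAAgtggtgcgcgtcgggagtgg

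The long regions differed more in number than in size between the arms. There were 396 on 2L, 426 on 2R, 499 on 3L, 550 on 3R and 205 on X. They were 25.5% of the State 9 regions on 2L, 28.0% on 2R, 29.2% on 3L and 29.7% on 3R, but 16.2% on X. Their median length was 21400 bp, with quartiles of 14200 and 35650 bp, and the medians of the arms lay between 20300 bp (2R) and 22500 bp (3R). Of the 62 regions of at least 100 kb, 26 were on 3R, 14 on 3L, 13 on 2L, 5 on 2R and 4 on X. The 2076 regions held 62.5 Mb, which is 79.5% of the summed State 9 length on the 5 arms and 68.7% of that on X. The lengths are what the rule used, and the list counts them in steps of 200 bp. At the limit itself there were 27 regions of 10000 bp, and 33 State 9 regions of 9800 bp lay just under it.

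**Figure D1:**
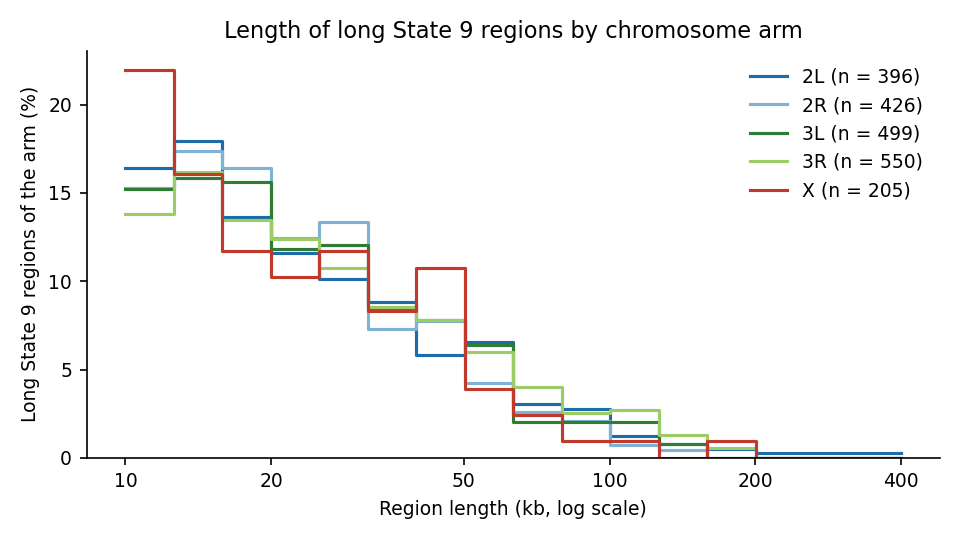
Length of the long State 9 regions (kb, log scale) on each arm, as the percent of the arm's long regions in each length class, 1 line per arm. Lines of the 5 arms run close together, with medians from 20300 to 22500 bp. Only 2L has regions above 200 kb (217400, 299200 and 328600 bp).

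The longest region of each arm spanned well over 100 kb. On 2L it ran from 17599763 to 17928362 (328600 bp), on 2R from 15562088 to 15692087 (130000 bp) and on 3L from 18454601 to 18611800 (157200 bp). The longest on 3R ran from 3375803 to 3575202 (199400 bp) and the longest on X from 20676095 to 20842294 (166200 bp). These positions are those of the list, and on 2R, 3L, 3R and X no gene of dm6 was set against them.

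Among the 9 states, State 9 had the largest share of long regions. On the 5 arms 26.3% of its regions reached 10 kb, followed by 20.2% for State 8 (heterochromatin-like regions embedded in euchromatin) and 18.2% for State 6 (Polycomb-mediated repression). For State 1 the share was 0.734%. Median lengths differed less, with 3200 bp over all State 9 regions and 2600 bp for State 8, and the State 9 regions under 10 kb had a median of 1800 bp.

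Most bases of the list lie in 2 regions, and the list does not say what the 2 stand for. For the long State 9 regions, the other region over the same bases was again State 9 for 66.0% of bases and State 8 for 20.6%, with State 4 (active introns) next at 7.01%. State 1 took 0.157%. In the State 9 regions under 10 kb the other region was State 9 for 56.4% of bases, State 4 for 14.3% and State 8 for 10.2%. Where the 2 regions over the long stretches had different states, the other one was thus most often State 8.

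On X the other region was mostly State 8. It was State 8 for 60.9% of the bases of long regions on X and State 9 for 19.4%. The share of State 9 was 58.3% on 2L, 81.6% on 2R, 72.4% on 3L and 70.8% on 3R, and State 8 was lowest on 2R with 8.02%. Of the 205 long regions on X, 127 (62.0%) had under 10% of their bases in a second State 9 region, against 24 of 426 (5.63%) on 2R. Without X, the share of second State 9 was 70.7%. Shorter State 9 regions on X showed the same order, with 36.9% State 8 and 29.3% State 9.

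**Figure D2:**
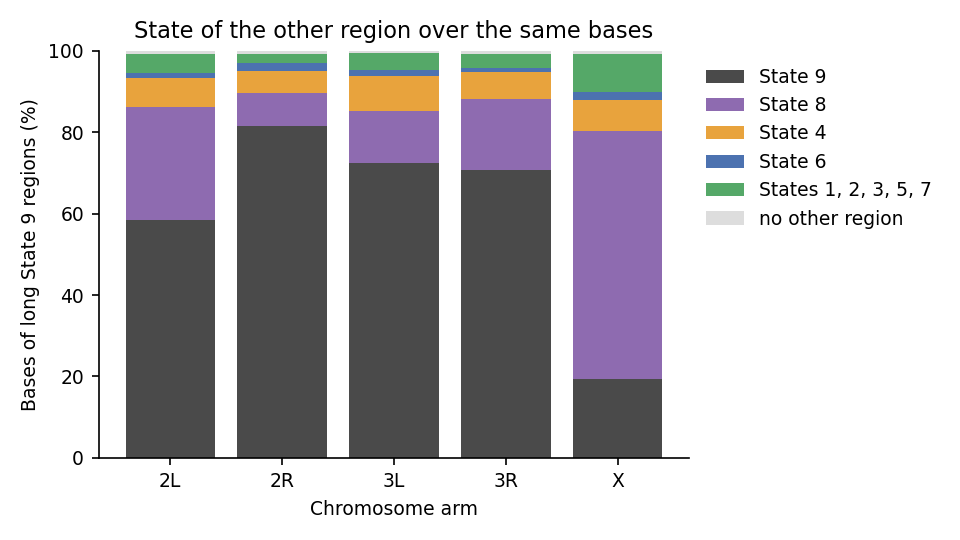
State of the other region over the bases of long State 9 regions, as a percent of bases, stacked for each chromosome arm. State 9 is the larger part on 2L, 2R, 3L and 3R (58.3% to 81.6%), while on X State 8 holds 60.9% and State 9 19.4%.

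Single long regions lay near both ends of this scale. The other region was State 9 over at least 90% of the bases in 1026 of the 2076 (49.4%), and over less than 10% in 380 (18.3%). The median over regions was 89.5%. The 62 regions of at least 100 kb stood lower than the others, with State 9 as the other region for 47.0% of their bases, against 67.4% from 10 to 20 kb, 70.9% from 20 to 50 kb and 67.2% from 50 to 100 kb. Without X the value at 100 kb or more was 49.2%. When the long regions alone were merged where they overlapped or abutted, they formed 1240 stretches that covered 44.3 Mb.

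Long State 9 regions most often ended at State 4, as did State 9 regions under 10 kb. The region that abutted them could be read at 3563 of their 4152 ends, and it was State 4 at 1488 ends (41.8%, interval 40.2 to 43.4), State 2 (transcription elongation) at 16.6%, State 8 at 14.6%, State 6 at 14.4% and State 1 at 7.86%. For State 9 regions under 10 kb, State 4 took 38.5% of the 10300 ends read and State 6 took 22.0%. The abutting region cannot itself be State 9, since 2 abutting regions of 1 state would be a single region. The X was again different. There, State 8 came first with 122 of 362 ends (33.7%), State 4 had 32.04% and State 2 had 0 of 362, which allows a share of up to 1.05%. State 2 is rare on X in the list, with 64 of its 6733 regions, and State 5 (active genes on the male X) took 12.2% of these ends. State 9 regions under 10 kb on X showed the same order, with State 8 at 28.3% and State 4 at 25.6% of ends.

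On 2L, genes were thinner in the long State 9 regions than around them but not missing. Their union covered 9.41 Mb, or 41.1% of the listed bases of 2L, and held the start of 728 of the 2657 protein-coding genes of the arm (27.4%). This was 7.74 starts per 100 kb (interval 7.19 to 8.32), against 14.3 (13.6 to 14.9) in the rest of the listed 2L. State 9 regions under 10 kb had 12.4 and State 1 regions 61.9 starts per 100 kb. States 2, 3, 4, 6 and 8 had from 5.13 to 7.85, so the long State 9 regions stood with these states and below State 1 and shorter State 9 regions.

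Exons covered 17.04% of the long State 9 bases on 2L and 32.9% of the rest, in which States 1 and 2 stood at 64.3% and 62.4%. States 3, 4, 6 and 8 had lower exon shares than the long regions, from 12.4% to 14.6%. Introns covered 39.5% and 40.6%, and bases outside protein-coding genes 43.5% and 26.4%, with 58.9% in State 6, 57.6% in State 7 and 50.6% in State 8. Thus over 1 base in 3 of the long regions lay in an intron, although State 9 is named intergenic. The GC share was 41.5%, against 42.1% in the rest. Annotated transposable elements took 4.08% of bases, against 5.64% in the rest. The 4.08% was more than in shorter State 9 regions (1.22%), State 6 (2.58%) and State 8 (3.85%), and less than in State 3 (4.53%) and State 7 (23.6%). Across single members of 2L, the GC share ran from 35.7% to 49.9%.

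The number of genes varied between members. The median member of 2L held 2 protein-coding gene starts, 88 of the 396 (22.2%) held none and 15 held 10 or more. The highest number was 19. Over the 396 members, the number of starts and the length had a Pearson's r of 0.58 and a Spearman's rho of 0.44, as a description of regions that in part overlap.

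The second region also went with gene number. Long State 9 bases of 2L whose other region was State 9 had 8.79 gene starts per 100 kb (7.92 to 9.73), and those whose other region was State 8 had 5.82 (5.05 to 6.68). The 0.0136 Mb with State 1 as the other region held 7 starts, or 51.5 per 100 kb (20.7 to 106). Those 7 genes, listed here after their values were seen, were Wdr62, CG2964, CG13982, Fic, raw, CG32832 and beat-IIIc. The start of beat-IIIc lay 10371 bp inside its member, and the other 6 starts were from 27 to 1274 bp from an edge.

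Gene starts were densest in the last kb outside the edges of long State 9 regions. Over 777 edges on 2L, the last 1 kb outside held 18.4 gene starts per 100 kb (15.5 to 21.7), and the kb steps farther out held 12.2 to 14.8. Inside, the number fell from 13.3 in the first kb to 6.82 (5.11 to 8.92) between 3 and 4 kb, and was 11.1 (8.85 to 13.7) between 4 and 5 kb. Exon bases fell from 32.9% in the kb step from 2 to 1 kb outside to 19.6% between 4 and 5 kb inside. Edges of overlapping regions can lie in the same place, so these 777 edges are not independent. An edge can also lie inside another long State 9 region. Outside here means outside the region whose edge it is, and such bases were not left out.

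**Figure D3:**
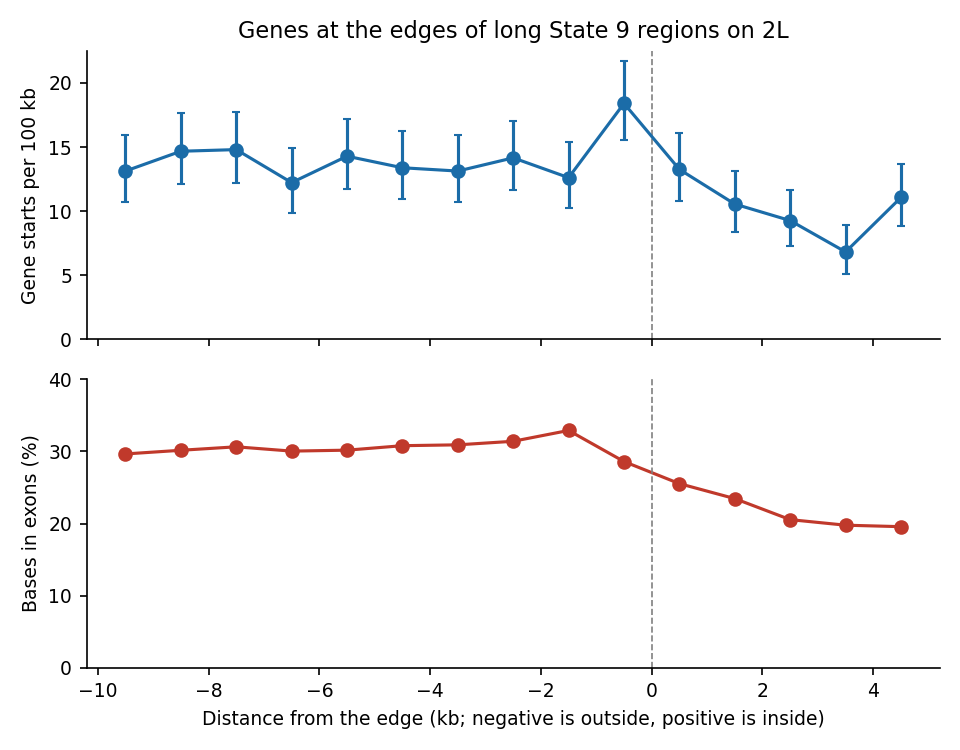
Protein-coding gene starts per 100 kb (upper panel, bars are 95% Poisson intervals) and percent of bases in exons (lower panel) by distance in kb from the edges of long State 9 regions on 2L, outside to the left and inside to the right. Bases outside one region can lie in another long State 9 region. Starts peak at 18.4 per 100 kb in the last kb outside and are lowest at 6.82 between 3 and 4 kb inside, while exon bases go from 32.9% to 19.6%.

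Genes starting in long State 9 regions of 2L included small and very large ones. The median gene spanned 1655 bp, against 2134 bp for the 1929 genes that start elsewhere. Yet 25 of the 728 (3.43%) spanned at least 50 kb, against 28 of 1929 (1.45%). Genes known only by a CG number were 60.7% of the 728 and 36.3% of the others. Of the 728 genes, 620 (85.2%) lay whole within the union of the long regions, where regions that overlap or abut count as 1 stretch.

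The 10 longest genes that start in a member spanned from 83.2 to 162 kb, and most of each lay in long State 9 regions in 9 of the 10. The longest was sick, a gene with a role in neurons, at 162 kb, of which 58.5% lay in long State 9 regions. The genes dpy (137 kb, a giant protein of the extracellular matrix) and CadN (131 kb, the neural cadherin) were covered for 98.8% and 100%. CadN2, a cadherin gene beside CadN, spanned 88.3 kb and was covered for 100%. Pde1c (114 kb), a phosphodiesterase, was covered for 95.4%, and nAChRalpha6 (92.9 kb), a subunit of the nicotinic acetylcholine receptor, for 90.9%. The lowest cover was 40.3%, in fred (88.8 kb), a cell adhesion gene related to echinoid, and Trim9 (83.2 kb), a ubiquitin ligase of growing axons, had 71.9%. The remaining genes of the 10, CG44153 (116 kb) and CG42750 (116 kb), had 94.97% and 100%.

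The 5 longest members on 2L held from 7 to 18 gene starts, with the fewest in the longest. The longest, of 328600 bp, had 7 gene starts, among them CadN (17647053 to 17778340, minus strand, 30 exons) and CadN2 (17786971 to 17875247, minus strand, 16 exons). The others of its 6 longest genes were CG43231, CG42830, CG43271 and CG15147, each under 2 kb. The next, from 16918363 to 17217562 (299200 bp), had 14 starts and held beat-IIIa and beat-IIIb, immunoglobulin proteins of axon guidance, and Grl36a, a gene like those of gustatory receptors. CG34106 has the same start and end as beat-IIIa, and CG6304 and CG31784 completed its 6 longest.

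The third, from 4576763 to 4794162 (217400 bp), had 15 starts. It held the start of dpy (4477462 to 4614300, minus strand, 87 exons), which runs out of the region, and the whole of fipi, a gene known for its effect on courtship song. Its other longest genes were dcma, CG11929, CG15635 and CG15631. The next region, from 15994763 to 16169362 (174600 bp), had 12 starts, with beat-Ic, beat-Ia and the start of Ca-alpha1D, a voltage-gated calcium channel. BicC, an RNA-binding protein first known from egg chambers, shares its start and end with CG45084 there, and CG13245 was the last of the 6. The fifth, from 5549363 to 5720962 (171600 bp), had 18 starts. It held the synaptic surface receptors DIP-theta and DIP-eta, the glutamate receptor subunits of the neuromuscular junction GluRIIA and GluRIIB, the chaperonin gene Hsp60C and CG7236.

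Gene families of 2L fell on both sides. Of the 144 genes of 14 lists, 65 started in a long State 9 region, and the lists are read beside the 27.4% of all protein-coding genes of 2L. The lists were written with earlier results of these data known, and a list of few genes has a wide interval. The intervals treat the genes of a list as independent, although neighbouring genes can start in the same long region.

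Olfactory and gustatory receptors and synaptic surface receptors lay mostly inside. All 10 olfactory receptors of 2L started in a long State 9 region (100%, interval 72.2 to 100), and each lay whole within one. Of the gustatory receptors, which sense taste and some odours, 13 of 17 did (76.5%, 52.7 to 90.4). The other 4 were Gr22f, Gr32a, Gr39a and Gr39b, of which Gr22f lay in State 9 regions of 5000 and 6400 bp. Receptors of the dpr, DIP, beat and side families, cell surface proteins through which neurons find partners, started inside in 12 of 16 (75%, 50.5 to 89.8). The ionotropic receptors (0 of 4) and the odorant-binding proteins (0 of 2) did not, and 0 of 4 allows a share of up to 49.0%. Neighbouring receptor genes often started in the same long region. Gr22a to Gr22e did so in a region of 125200 bp, and Gr36a to Gr36c in a region of 299200 bp. Or33a to Or33c did so in a region of 28800 bp. The receptors thus lay in fewer separate regions than there were genes, and their intervals do not allow for this.

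Genes of other differentiated tissues were divided. Among seminal fluid proteins, which are made by glands outside the testis, 13 of 23 started in a long region (56.5%, 36.8 to 74.4). Of the cuticle proteins, Cpr23B, Acp1, Cpr30B and Cpr31A did and 4 others did not. Of the trypsin-like proteases of the gut, Ser12, Phae1 and Phae2 did and 3 did not. Those 3, Jon25Bi, Jon25Bii and Jon25Biii, lay in State 9 regions too, and these were under 10 kb (5400 bp for the longer one).

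Ribosomal protein genes lay outside. None of the 19 ribosomal protein genes (which allows a share of up to 16.8%) and none of the 12 mitochondrial ribosomal protein genes (up to 24.2%) started in a long State 9 region. All 12 of the latter started in State 1 in both regions. Most of the former also started in State 1, but RpL5 and RpS28-like started in State 7 in both regions and RpL37A in States 8 and 1. The proteasome list was divided. Rpn11, Prosalpha6, Prosbeta4 and Rpn3, subunits of the proteasome in all cells, started in State 1 in both regions. Prosalpha6T, Prosbeta4R1, Prosbeta4R2 and Prosbeta5R2, copies of proteasome genes known from the testis, all started in long State 9 regions. Prosbeta4R1 and Prosbeta4R2 shared 1 region of 139400 bp, and the regions of Prosalpha6T and Prosbeta5R2 had 37000 and 93200 bp. No expression was measured here.

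**Figure D4:**
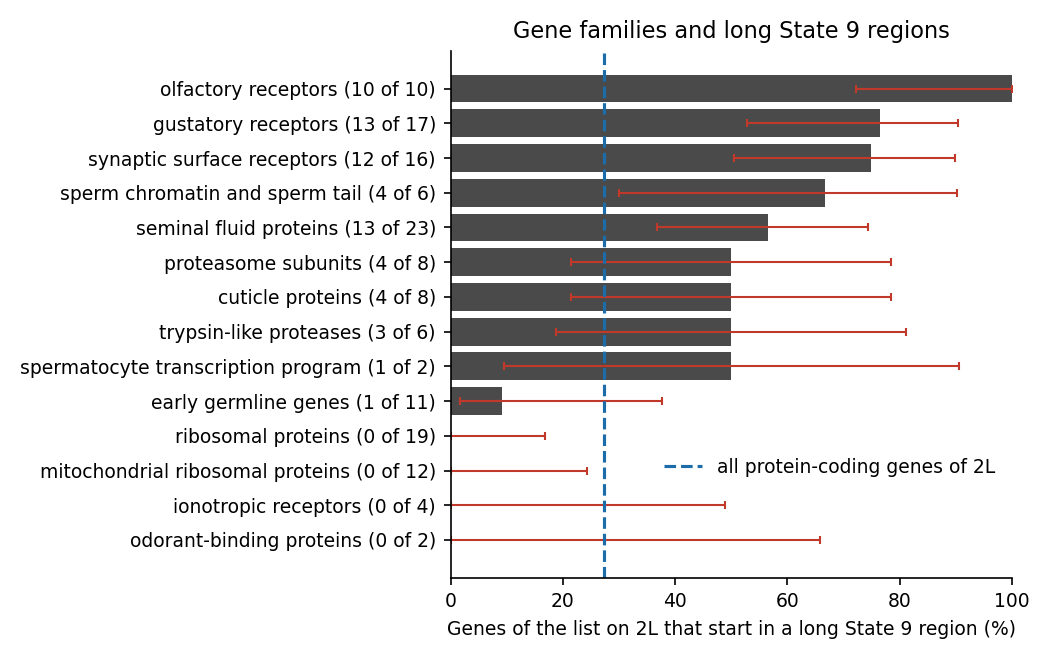
Percent of each gene list's members on 2L that start in a long State 9 region (bars, with 95% Wilson intervals and the counts beside the names), and the 27.4% of all protein-coding genes of 2L (dashed line). Olfactory receptors stand at 10 of 10, and ribosomal protein genes at 0 of 19. Intervals treat the genes of a list as independent, although neighbouring genes can start in the same long region.

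Of the 11 genes of the early germline and its niche, 1 started in a long State 9 region. This was spz3, which encodes a ligand of the Spätzle family, in State 9 regions of 12800 and 13000 bp. Genes of BMP signalling, which keeps germline stem cells, lay elsewhere: Mad and tkv started in State 1 in both regions and dpp in State 4 in both. The transcription factor genes chinmo and tj, which act in the somatic cyst cells, started in State 6 in both regions, and esg, which acts in stem cells of the testis, in States 6 and 8. The piRNA gene aub started in States 1 and 2, piwi in State 7 (pericentromeric heterochromatin) in both, and bru1, an RNA-binding protein gene, in States 7 and 8. The helicase gene vas, a marker of all germ cells, started in State 4 and in a State 9 region of 600 bp. Neither expression nor states of these testes were measured here.

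Of the 8 listed genes that act later in sperm formation, 5 started in a long State 9 region. They come from 2 lists, with 4 of 6 genes of sperm chromatin and sperm tail (66.7%, 30.0 to 90.3) and 1 of 2 of the spermatocyte transcription program (50%, 9.45 to 90.5). Both intervals overlap that of the early germline genes, so no difference between early and late genes is read. ProtA and ProtB, the protamine-like proteins of sperm chromatin, started in a long State 9 region of 19000 bp with State 8 as the other region. Mst33A and Mst36Fb, both named as male-specific transcripts, also started in long State 9 regions, while Mst27D and Mst36Fa did not. The start of Mst36Fa, the neighbour of Mst36Fb, had State 1 in both regions, 800 and 1200 bp long. Of the genes of the spermatocyte transcription program, nht, a testis form of a TFIID subunit, started inside a region of 52600 bp and tomb, a subunit of the testis meiotic arrest complex, in State 2.

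Genes of other kinds gave further differences. Non-coding RNA genes started in long State 9 regions in 359 of 804 (44.7%, 41.2 to 48.1), above the 27.4% of protein-coding genes. This share was near the 41.1% of the listed bases of 2L that the long regions cover. Of the snoRNA genes, many of which lie in introns of genes active in all cells, 1 of 41 did (2.44%, 0.432 to 12.6). For tRNA genes it was 10 of 41 (24.4%), for snRNA genes 9 of 16 (56.3%) and for annotated transposable elements 165 of 953 (17.3%).

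Promoters in long State 9 regions, like others outside State 1, rarely held the DRE core. TATCGATA, which reads the same on both strands, was found between 250 bp before and 50 bp after the start in 12 of 728 promoters (1.65%, 0.945 to 2.86). It was found in 8.77% of all 2657 promoters of 2L, in 19.3% of the 1081 in State 1 outside the long regions and in 12 of the 848 in neither set (1.42%, 0.811 to 2.46). The low share was thus common to promoters outside State 1, and not particular to long State 9 regions. Among the sequences shown, its first base lies at -16 from the start of Prosalpha6 and at -9 from that of mRpS23, and Prosalpha6T has none in the 200 bases. Of the 12 genes with the motif in a long State 9 region, 6 started within 1000 bp of the member's edge and 2 had State 1 as the other region.

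The TATA core, searched as TATAAA on both strands, was found in 44.9% (41.3 to 48.5) of promoters in long State 9 regions, in 51.0% (48.7 to 53.2) of the others and in 49.3% of all 2657. On the strand of the gene alone the values were 34.9% (31.5 to 38.4) in long State 9 regions and 35.1% in the others. The others were 30.3% (27.7 to 33.1) in State 1 and 41.2% (37.9 to 44.5) in neither set. In Cpr31A the first base of TATAAA lies at -26. The promoters of the 728 genes had a GC share of 39.3%, against 37.4% elsewhere. A match of letters is not a bound site, and no factor was mapped here.

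The reads could be placed on the list. The rows of the read table follow those of the list: all 42 pairs of regions with the same coordinates had the same sum, and in 0 of 19353 nested pairs did the inner region have more reads than the outer one. All 476 regions on Het names had 0 reads. The long State 9 regions held 27.9% of the sum over all regions and libraries, and 26.5% of the listed length outside Het names. In both, most bases are counted in 2 regions. The median member of 2L with reads had 11306 reads, for a counting error of 0.940%.

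Reads, summed over the libraries of the 4 tagged histones, were found in all but 2 of the long State 9 regions of 2L. The median of the long State 9 regions of 2L was 564 reads per kb, with quartiles of 530 and 585, a lowest value of 0 and a highest of 669. Shorter State 9 regions had a median of 580, State 8 regions 574, State 6 regions 573, State 1 regions 636 and State 3 regions (regulatory regions) 643. State 1 was thus 1.13 times the long State 9 median, and the quartiles of State 1 were 561 and 723, which overlap those of the long regions. The median of long State 9 regions was the lowest of the 10 sets on 2L, but they were not lowest under each measure. As summed reads over summed length, State 7 was lower, with 391 against 542 for long State 9 regions. Per kb of 50-base words found once in dm6, the median of long State 9 regions was still the lowest. It was 573, close to the 574 of State 6. Members with at least 90% second State 9 (n = 162) and those with under 10% (n = 82) had medians of 563 and 564.

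On the other arms the listed positions were not set beside dm6, so the order of states there was not read. Medians of the listed long regions were 562 on 2R, 565 on 3L, 574 on 3R and 299 on X, with 1 region of 0 reads on 3R. Reads were aligned to dm6 and the build of the list is not stated, so it is not known that the reads counted there came from the sequence that was given State 9. The same holds for the part of the 27.9% that lies on these arms. The X value was 0.521 to 0.532 times those of the other arms, in males, which carry a single X.

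The lowest values on 2L were in members rich in sequence that occurs more than once. A 50-base word of dm6 was taken as repeated where it, or its reverse complement, occurs elsewhere in the genome. Of the 396 members of 2L, 61 had at least 10% repeated words, with a median of 437 reads per kb (0 to 570), and the other 335 had a median of 570 (417 to 669). All 8 members with under 300 reads per kb were among the 61. Across the 396 members, reads per kb and the share of repeated words had a Pearson's r of -0.91 and a Spearman's rho of -0.53. Counted per kb of words that occur once, the medians of the 61 (59 with any such words) and the 335 were 571 and 573, and the SD over members went from 79.9 to 34.9. The authors had removed reads of low mapping quality, and a read that matches 2 places equally well has a low mapping quality. Whether this removal gave the low values was not tested.

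**Figure D5:**
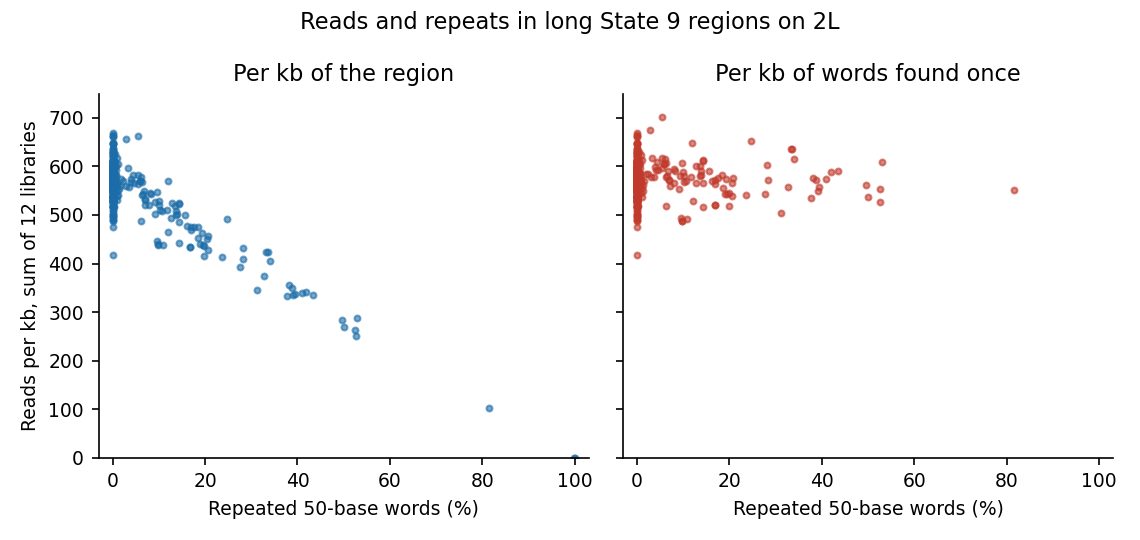
Reads per kb, summed over 12 libraries, against the percent of repeated 50-base words for the members on 2L (1 point each), per kb of the whole region (left, n = 396) and per kb of words found once (right, n = 394). On the left, points go down from about the median of 564 to 0, and on the right they stay between 417 and 701 at all repeat shares.

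The members with few reads held different kinds of copies. The region from 14641163 to 14652162 had 102 reads per kb, and 82.8% of its bases were transposable elements. The region from 7726163 to 7748562 had 263 reads per kb with 0% transposable elements and 52.5% repeated words, and holds the start of the cuticle gene Acp1 and of 5 other genes. Per kb of words found once, these regions had 552 and 553 reads.

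On 2L, 2 members had no reads, and both lay in or over the end of stol, a gene for a subunit of voltage-gated calcium channels (15644183 to 15718272, minus strand). The regions from 15660963 to 15694962 and from 15695963 to 15718762 had 0 reads in the sum, within a run of 58800 bp of listed regions with 0 reads, and 99.9% of the words in that run were repeated. The bases from 15657273 to 15688164 (30892 bp) are letter for letter the same as those from 15692270 to 15723161, at a distance of 34997 bp. A stretch of 60 bases, shown as it stands in both places (15677962 to 15678021 and 15712959 to 15713018), is an example.
stol repeat, plus strand: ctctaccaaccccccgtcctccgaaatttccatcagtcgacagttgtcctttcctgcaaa
The copies hold gene pairs of the same length, CG18477 and CG31780 (1713 bp), CG18478 and CG31827 (1050 bp) and CG43923 and CG43924 (521 bp), so 0 reads there does not show that no tagged histone was present.

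Base composition went with the reads that remained. Over the 394 members of 2L with words found once, reads per kb of such words and the GC share had a Pearson's r of -0.61 and a Spearman's rho of -0.56. Reads per kb of the whole region and the length had an r of -0.03 and a rho of -0.15 over the 396. All of these members share the same 12 libraries, and the part of GC share in the differences between states was not tested.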

How the data were processed

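For the 12 ChIC libraries (4 histones, 3 replicates each), the authors used Bowtie2 and the dm6 genome, filtered out duplicates and poorly mapped reads, and counted what was left per region of a list of 9 states from the modENCODE project. The deposited list gives chromosome, start, end and state, with starts read as counted from 0 and given here counted from 1. The deposited table of reads has 12 columns that could be matched to no library, and only their sum was used. Its values are whole numbers.

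Long State 9 regions, the region over the same bases and the abutting regions were taken from the list. An end was read only where 1 region alone could abut. Genes came from the Ensembl release 115 annotation of dm6 and sequence from NCBI, and a gene start is the outermost annotated start. Promoters, from 250 bp before to 50 bp after that start, were cut from these. Words of 50 bases were counted on both strands of all dm6 sequences. Python 3.11.15, numpy 2.4.6, pandas 2.3.3, scipy 1.17.1, statsmodels 0.14.6 and matplotlib 3.10.9 were used, and the interval functions were tested on simulated data.

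Members and gene lists were chosen with earlier results of these data known. Named regions were the longest of each arm and the 5 longest of 2L. Named genes were up to 6 of the longest genes starting in each of these 5, the 10 longest genes of 2L that start in a member, list members starting in a member where the list has at most 8 such, and the germline list. Other genes were named after their values were seen, among them those of small counts, of the members with few reads and of the sequences shown from outside. Acp1 was counted as a cuticle protein. Alternatives were other length limits, merged regions, trimmed ends, other gene sets, the list without X and summed reads.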

Additional observations from a re-analysis of the deposited data

How the results depend on the processing

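The number of long State 9 regions was 3175 with a minimum of 5000 bp, 1103 with 20000 bp and 1255 after merging State 9 regions first, and their share of State 9 length was 89.5%, 62.0% and 84.5%, or 80.8% without X. The share of second State 9 was 65.7% and 65.6% with these minimums and 70.7% without X. On 2L, gene starts per 100 kb were 8.79 where both regions were State 9, 13.6 with all genes and 9.87 with all transcript starts, and in the rest of 2L, in an alternative chosen after seeing the data, 24.0 and 20.4. Exon bases were 17.5% and 15.9% with the minimums of 5000 and 20000 bp, 19.9% where both regions were State 9, 16.4% with 1000 bp trimmed and 19.6% with all genes except transposable elements, and the GC share was 41.5%, 41.4%, 41.8% and 41.5% in the first 4 of these. Reads per kb were 567 and 560 with these minimums, 542 as summed reads over summed length and 573 per kb of words found once, the last chosen after seeing the data. TATAAA on the gene strand gave 34.9%, and TATCGATA is its own reverse complement. The long regions had fewer gene starts than the rest of 2L under each gene set. Reads per kb where both regions are State 9 and after trimming were not computed, because reads are given only per whole region. No paired analysis was possible because unnamed columns of reads give no replicate numbers. The list is not from these testes, only 2L was set beside genes, and no replicate or control gives an error for the reads.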
